A study of Mus musculus with 8 samples.

Results

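The genes described here are 40 nuclear receptors and coregulators of mouse liver, Ppara and its partners among them. They were chosen by name as nuclear receptor, coactivator and corepressor genes, and all 40 were found among the 20894 genes of the deposited table after Ensembl identifiers were matched to symbols. Of these, 28 encode receptors and 12 encode coactivators, corepressors or deacetylases. A filter on low counts left 34 of the 40 for testing, 24 receptors and 10 coregulators, among 10390 genes tested in all.

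Gene expression was measured by poly-A RNA sequencing in livers of wild-type mice given an AAV8 vector, an adeno-associated virus that reaches the liver well. In 4 libraries the vector carried POLR2G, a subunit of RNA polymerase II, and in the 4 control libraries it carried GFP, in each case under the TBG promoter, which is active mainly in hepatocytes. All animals were fasted during the day before the liver was taken. The sources used here state neither strain, age, sex, vector dose nor the time since injection. The labels do not link libraries to individual mice, and the spread behind each p-value is that of these libraries, which may be technical.

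Nuclear receptors are transcription factors that bind DNA through a zinc finger domain, and many of them respond to a small ligand such as a fatty acid, an oxysterol, a bile acid, a steroid or a drug. Many of the receptors active in liver, PPARA among them, bind DNA as a heterodimer with a retinoid X receptor (RXR), on repeats of the hexamer AGGTCA. A receptor without its ligand can hold corepressor complexes built on NCOR1 with the histone deacetylase HDAC3, and ligand binding favours exchange for coactivators such as the NCOA proteins, CREBBP, EP300 and the Mediator subunit MED1. In fasted liver PPARA is known for driving genes of fatty acid oxidation and ketone body production.

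Total estimated counts ranged from 14159056 to 22165491 per library, and Polr2g counts were 213 to 258 per GFP control library but 38649 to 54553 with the POLR2G vector, as the labels say. The tissue check found the hepatocyte markers Alb, Ttr, Apoa1, Apob, Cps1 and Tat in all 8 libraries. Their summed level was 111726 to 133025 CPM (counts adjusted for library size by TMM) in the GFP control and 104550 to 117635 CPM in the POLR2G libraries. All 6 had a lower mean with POLR2G (median log2 fold change −0.15), 1 of them without overlap of the groups. Whether this bears on the members' values was not tested. Of the 40 members, 37 have more than 1 annotated coding transcript in GENCODE M21, and the 3 with 1 are Nr1i2, Nr0b2 and Hdac3. Whether the table covers all transcripts of the 37 was not tested, and the levels below are to be read with that limit.

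The 6 members that the filter left out were listed with few counts in every library: Ppard, a lipid-sensing receptor, with 0 to 6, Thra, a thyroid hormone receptor, with 0 to 1, and Hnf4g, a relative of Hnf4a, with 1 to 8. The others were Esrra, an estrogen-related receptor with roles in energy metabolism, with 0 to 11 counts, the coactivator Ncoa2 with 0 to 2, and the histone acetyltransferase Ep300 with 0 to 7. Each of the 6 has between 2 and 4 annotated coding transcripts. No fold is given for them, and such counts do not show that the genes are silent.

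None of the 34 tested members passed the threshold (edgeR, adjusted p under 0.05), where 4 of 10390 genes did (0.0385%). The smallest adjusted p among the members was 0.495, for Ncor1 (edgeR). At an unadjusted p under 0.05 edgeR gave 1 member, Ncor1, lower in the POLR2G libraries, where 8.3% of all genes tested passed in either direction, 4.1% lower and 4.2% higher. DESeq2 and limma-voom also called 0 members, and each gave Ncor1 alone at an unadjusted p under 0.05. Ncor1 was also the 1 member whose POLR2G and GFP control libraries did not overlap, against 5.51% of all genes tested, 2.68% with the POLR2G libraries lower. Both counts were thus 1 of 34, below or close to these shares of all genes.

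The differences of the members were small for most. The median log2 fold change over the 34 was −0.062, against −0.0031 over all genes tested, and 13 had a higher and 21 a lower mean in the POLR2G libraries. One POLR2G column carries a library number that no label lists, and that library is called unnumbered here. The labels also list a POLR2G replicate 2 that no column matched, and whether the unnumbered library is that replicate is not given. Without this unnumbered POLR2G library the median was 0.0058 with 18 higher and 16 lower. The median size of a difference, without regard to direction, was 0.094 for the members and 0.14 for all genes tested. The 95% interval of the log2 fold change lay inside a 2-fold change in either direction for 27 of the 34 (79.4%, against 74.7% of all genes tested) and inside 1.5-fold for 19. The 7 whose interval reached past 2-fold were Pparg, Rarb, Nr3c2, Esr1, Nr5a2, Ncoa6 and Sirt1. At this depth and spread a 2-fold fall could not be told from no difference for Pparg, Esr1 and Nr5a2. The same held for a 2-fold rise of Rarb and Nr3c2, and for a 2-fold difference in either direction of Ncoa6 and Sirt1.

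**Figure D1:**
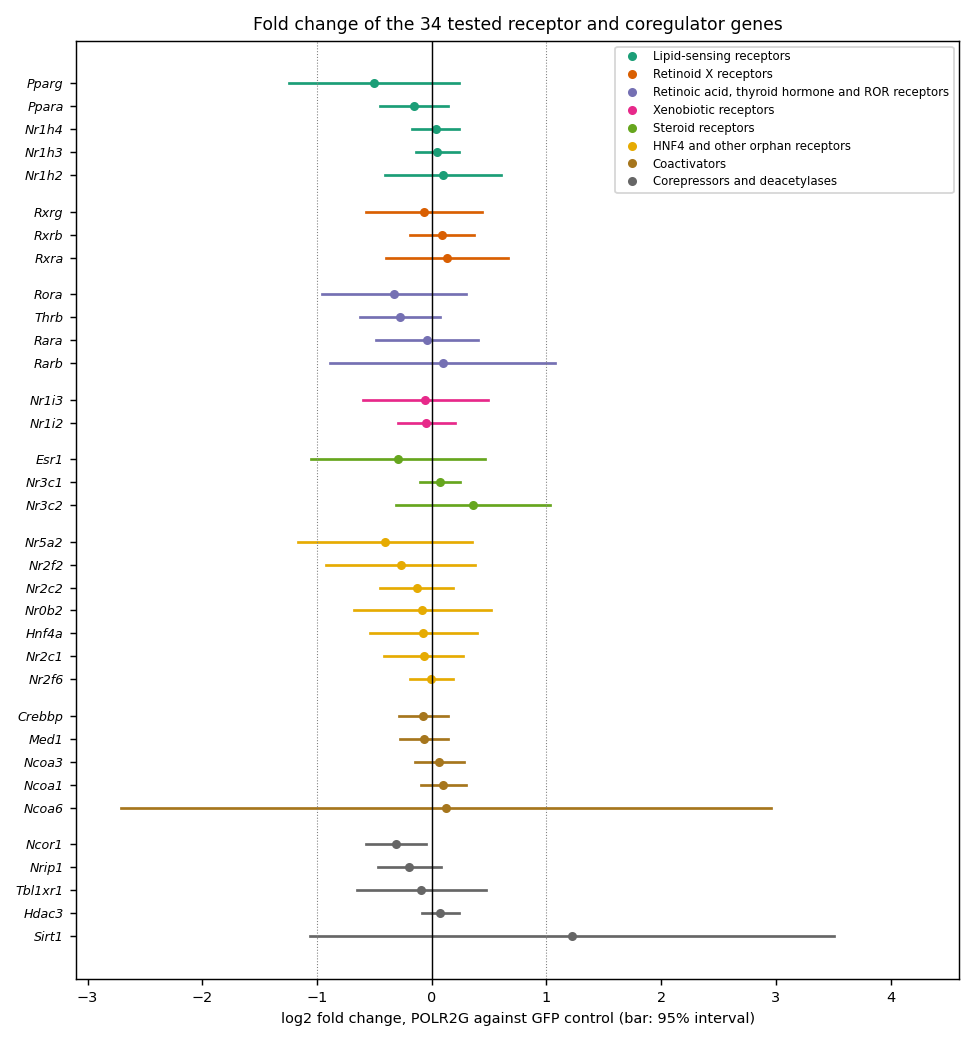
Log2 fold change of each of the 34 tested members, POLR2G against GFP control (x axis), grouped by role (colours), with bars for the 95% interval from edgeR and dotted lines at a 2-fold change. The bar of Ncor1 alone does not cross 0, and those of Ncoa6 and Sirt1 are the widest of the 34.

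The promoter windows of the members were read from RefSeq's table (GRCm38.p6), which held 34 of the 40 genes. In the 250 bases before a start site the receptor hexamer AGGTCA, searched on both strands, was present for 6 of 34 members (17.6%), against 15.8% of 27025 genes of the table. The 6 were Nr1h4, Nr5a2, Pparg, Rxra, Rxrg and Thrb. AAGGTCA, which contains the hexamer, was present for 2 members (5.88%, against 4.70% of all), Rxra and Rxrg. Direct repeats of the hexamer with 1 or 4 bases between were present in 0 members and in 0.041% and 0.015% of all genes. The GC box GGGCGG was present for 21 members (61.8%, against 35.4% of all), the CCAAT box for 13 (38.2%, against 37.5%) and TATAAA for 5 (14.7%, against 14.3%). A gene was counted if any of its windows held the motif. Some genes have several windows, so these shares depend on the number of starts per gene, which was not matched between members and all genes. A match is a string of letters and not a shown binding site.

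The windows printed here are those that hold the hexamer and overlap no annotated exon, so that a reader can see the receptor hexamer before starts of genes that encode receptors themselves. Capitals mark AGGTCA or its reverse complement, and each runs 5′ to 3′ on the strand of the gene. They lie at chr2:27709042-27709291 on the plus strand for Rxra, with 2 matches, and at chr1:167618015-167618264 on the plus strand for Rxrg. The others are chr1:136960449-136960698 on the minus strand for Nr5a2 and chr10:89506659-89506908 on the minus strand for Nr1h4. The Rxra, Rxrg and Nr1h4 windows precede a start inside the annotated gene, and that of Nr5a2 precedes the outermost start.
Rxra: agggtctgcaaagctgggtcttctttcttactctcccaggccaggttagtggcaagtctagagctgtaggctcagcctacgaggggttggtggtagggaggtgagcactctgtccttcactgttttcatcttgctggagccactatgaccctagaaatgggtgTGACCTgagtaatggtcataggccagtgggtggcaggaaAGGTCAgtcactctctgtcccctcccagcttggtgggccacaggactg
Rxrg: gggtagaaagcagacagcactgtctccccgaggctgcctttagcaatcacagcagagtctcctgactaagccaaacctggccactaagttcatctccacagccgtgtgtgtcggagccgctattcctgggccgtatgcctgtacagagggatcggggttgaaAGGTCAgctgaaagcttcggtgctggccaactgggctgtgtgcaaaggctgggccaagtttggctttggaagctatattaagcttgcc
Nr5a2: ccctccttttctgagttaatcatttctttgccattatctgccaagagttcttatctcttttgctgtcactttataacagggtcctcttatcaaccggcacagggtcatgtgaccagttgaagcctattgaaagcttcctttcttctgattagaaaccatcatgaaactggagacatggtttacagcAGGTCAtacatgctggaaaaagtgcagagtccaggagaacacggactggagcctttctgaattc
Nr1h4: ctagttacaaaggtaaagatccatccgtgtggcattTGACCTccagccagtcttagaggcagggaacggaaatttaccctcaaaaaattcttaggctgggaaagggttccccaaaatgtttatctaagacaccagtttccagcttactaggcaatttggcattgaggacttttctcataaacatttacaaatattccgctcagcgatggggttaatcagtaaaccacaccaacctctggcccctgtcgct

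Among the lipid-sensing receptors, Ppara (ENSMUSG00000022383; GRCm38 chromosome 15, 85734983 to 85802819, plus strand), the fatty acid receptor of the fasting response, measured 174, 155, 189.9 and 193 CPM in GFP control replicates 1 to 4. With POLR2G it measured 162, 199 and 153 CPM for replicates 1, 3 and 4 and 127 for the unnumbered library. The groups overlapped, with both the highest and the lowest value in POLR2G libraries. The means were 178 ± 17.6 and 160.1 ± 29.8 CPM (SD, n = 4 each), a log2 fold change of −0.15 (SE 0.13, 95% interval −0.45 to 0.15, edgeR adjusted p = 0.825, exact permutation p = 0.343). The interval runs from 1.37-fold lower to 1.11-fold higher. Without POLR2G replicate 3 the log2 fold change was −0.27 (edgeR adjusted p = 0.635), and without the unnumbered library −0.054.

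Pparg (ENSMUSG00000000440; chromosome 6, 115360951 to 115490399, plus strand), the adipose receptor that promotes fat storage, measured 7.75, 16.5, 4.96 and 9.48 CPM across GFP control replicates 1 to 4. The POLR2G values were 6.76, 5.97 and 5.75 CPM in replicates 1, 3 and 4 and 8.80 in the unnumbered library. GFP control replicate 2 was the highest and replicate 3 the lowest of all 8, so the control libraries spanned the POLR2G group. The log2 fold change was −0.51 (SE 0.33, 95% interval −1.25 to 0.24, edgeR adjusted p = 0.753). It was −0.12 without GFP control replicate 2 and −0.72 (edgeR adjusted p = 0.500) without replicate 3.

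Of the oxysterol and bile acid receptors, Nr1h3 and Nr1h4 varied little between libraries. Nr1h3, which encodes the oxysterol receptor LXR alpha, measured 87.2 ± 7.75 and 90.3 ± 5.87 CPM with GFP and with POLR2G (log2 fold change 0.050, 95% interval −0.14 to 0.24). Nr1h4, the bile acid receptor FXR, measured 74.4 ± 5.89 and 76.3 ± 7.79 CPM (0.035, −0.17 to 0.24). For Nr1h3 and Nr1h4 a change of more than 1.18-fold in either direction lay outside the interval, and with no composition scaling their log2 fold changes turned to −0.022 and −0.038. Nr1h2, LXR beta, was less precise at 12.5 ± 2.29 and 13.4 ± 3.87 CPM (0.098, −0.41 to 0.60).

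**Figure D2:**
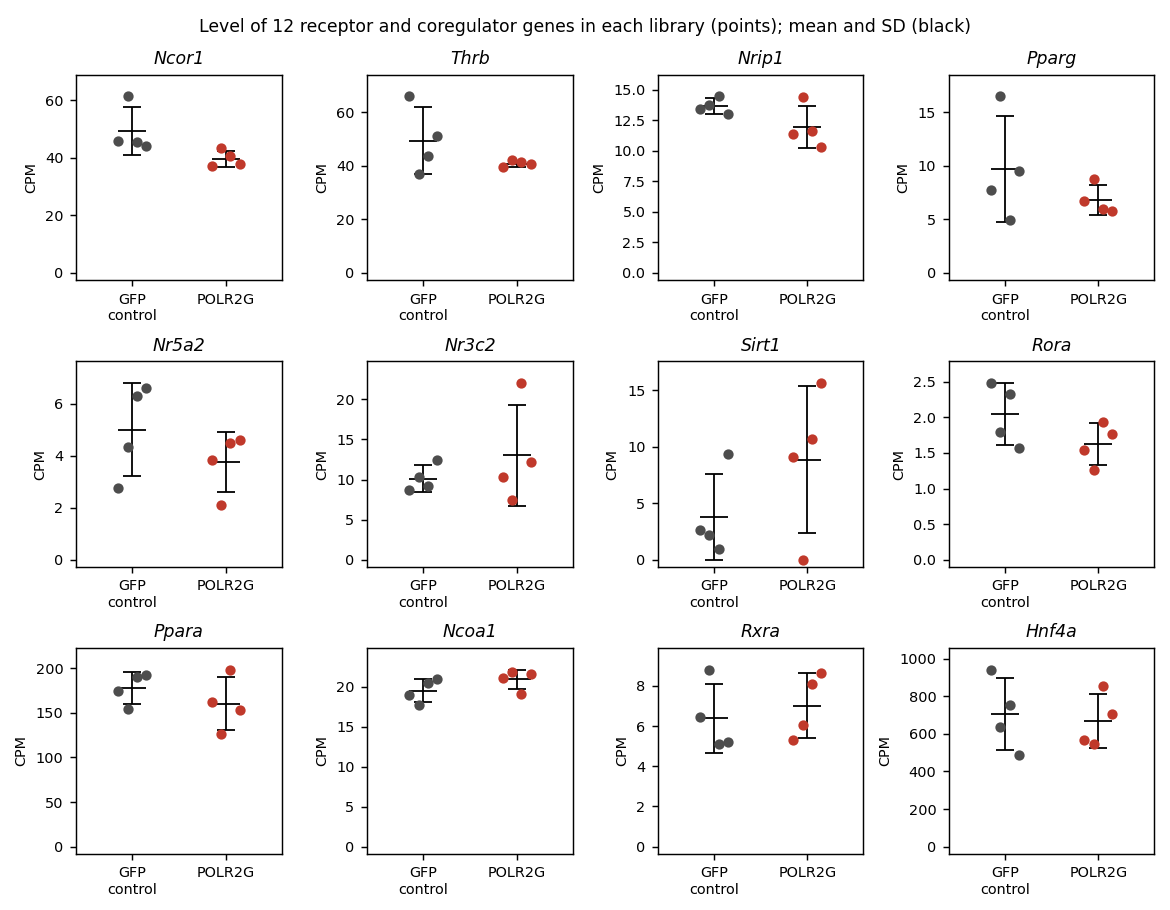
CPM of 12 members in each of the 4 GFP control (grey) and 4 POLR2G (red) libraries, with the mean and SD in black; each panel has its own axis that includes 0. The groups overlap in every panel but that of Ncor1, where GFP control replicate 2 at 61.6 CPM stands above all others.

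The retinoid X receptors are the shared partners of PPARA, the LXRs, FXR and the retinoic acid, thyroid hormone and xenobiotic receptors. Rxra (ENSMUSG00000015846; chromosome 2, 27676440 to 27762957, plus strand) measured 6.44, 8.82, 5.09 and 5.20 CPM in GFP control replicates 1 to 4. With POLR2G it measured 5.31, 8.08 and 8.66 CPM in replicates 1, 3 and 4 and 6.05 in the unnumbered library. The ranges of the groups nearly coincided (log2 fold change 0.13, SE 0.24, 95% interval −0.40 to 0.67, edgeR adjusted p = 0.933). Rxra had 79 to 152 counts per library and 5 annotated coding transcripts, which limits what its level shows. Rxrb measured 21.4 ± 3.61 and 22.7 ± 1.42 CPM (0.089, −0.19 to 0.36) and Rxrg 3.48 ± 0.633 and 3.31 ± 0.592 CPM (−0.071, −0.58 to 0.44).

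Of the retinoic acid, thyroid hormone and ROR receptors, Thrb (ENSMUSG00000021779; chromosome 14, 17660261 to 18038090, plus strand), the thyroid hormone receptor that predominates in liver, had the next smallest p after Ncor1. It measured 66.2, 37.0, 43.7 and 51.0 CPM across GFP control replicates 1 to 4. The POLR2G libraries lay close together at 39.4, 41.3 and 40.6 CPM in replicates 1, 3 and 4 and 42.0 in the unnumbered library. They lay inside the range of the controls, of which replicate 1 was the highest (log2 fold change −0.28, SE 0.16, 95% interval −0.63 to 0.073, edgeR adjusted p = 0.707). Without GFP control replicate 1 the log2 fold change was −0.10, and without replicate 2 it was −0.39 (edgeR adjusted p = 0.488). The coefficient of variation of Thrb was 25.4% in the GFP control and 2.74% in the POLR2G libraries, a difference that was not tested.

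Rora (ENSMUSG00000032238; chromosome 9, 68653786 to 69388246, plus strand), a clock-linked orphan receptor, measured 2.49, 1.80, 2.32 and 1.57 CPM across GFP control replicates 1 to 4. The POLR2G values were 1.54, 1.93 and 1.77 CPM in replicates 1, 3 and 4 and 1.26 in the unnumbered library. The groups overlapped and rested on 21 to 44 counts per library (log2 fold change −0.33, SE 0.28, edgeR adjusted p = 0.820). Rara, a retinoic acid receptor, measured 15.4 ± 1.46 and 14.9 ± 4.57 CPM (−0.045, 95% interval −0.49 to 0.40). Rarb, which hepatic stellate cells also express, measured 2.06 ± 0.980 and 2.21 ± 1.09 CPM (0.094, −0.89 to 1.07).

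The xenobiotic receptors Nr1i2 (PXR) and Nr1i3 (CAR) sense drugs and bile acids and drive detoxification genes. Nr1i2, which has 1 coding transcript, measured 116.8 ± 8.89 CPM with GFP and 113 ± 17.0 CPM with POLR2G (log2 fold change −0.048, 95% interval −0.29 to 0.20). Nr1i3 measured 193 ± 43.2 and 185 ± 62.9 CPM (−0.057, −0.60 to 0.49). The lowest value of Nr1i3 was 119 CPM in the unnumbered POLR2G library and the highest 266 CPM in POLR2G replicate 3, so the POLR2G group spanned all 4 controls.

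Among the steroid receptors, Nr3c1, the glucocorticoid receptor, measured 105.4 ± 6.20 CPM with GFP and 110.9 ± 8.98 CPM with POLR2G (log2 fold change 0.073, SE 0.077, 95% interval −0.10 to 0.25). Nr3c2 (ENSMUSG00000031618; chromosome 8, 76899442 to 77245012, plus strand), the mineralocorticoid receptor, measured 8.65, 10.3, 9.16 and 12.4 CPM across GFP control replicates 1 to 4. Its POLR2G values were 10.3, 22.1 and 12.1 CPM in replicates 1, 3 and 4 and 7.49 in the unnumbered library. Replicate 3 of the POLR2G group stood above the others, and the log2 fold change of 0.36 (SE 0.30, 95% interval −0.31 to 1.03, edgeR adjusted p = 0.818) was −0.020 without it.

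Esr1, the estrogen receptor alpha, varied among the controls more than between the groups. It measured 75.0 CPM in GFP control replicate 3 and 19.7 to 41.0 CPM in the other 3 controls, against 30.2 to 38.3 CPM with POLR2G (log2 fold change −0.29, 95% interval −1.06 to 0.47, edgeR adjusted p = 0.879). Without GFP control replicate 3 the direction turned, to 0.16.

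The HNF4 and other orphan receptors had 7 of 9 members tested, and all 7 had a lower mean in the POLR2G libraries, with log2 fold changes from −0.41 to −0.0042. None passed the test, and without the unnumbered POLR2G library Hnf4a (0.011) and Nr0b2 (0.062) had a higher mean. Hnf4a (ENSMUSG00000017950; chromosome 2, 163506808 to 163572910, plus strand), a receptor that maintains hepatocyte identity, measured 943, 635, 752 and 489 CPM in GFP control replicates 1 to 4. With POLR2G it measured 566, 855 and 708 CPM in replicates 1, 3 and 4 and 545 in the unnumbered library. The controls alone spanned the whole POLR2G group (log2 fold change −0.075, SE 0.21, 95% interval −0.54 to 0.39, edgeR adjusted p = 0.959), and without GFP control replicate 1 the value was 0.098.

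Nr5a2 (ENSMUSG00000026398; chromosome 1, 136842571 to 136960448, minus strand), LRH-1, a regulator of bile acid synthesis genes, measured 2.77, 4.35, 6.32 and 6.61 CPM across GFP control replicates 1 to 4. Its POLR2G values were 3.86, 4.51 and 4.61 CPM in replicates 1, 3 and 4 and 2.10 in the unnumbered library. The groups overlapped, with GFP control replicate 1 below all POLR2G libraries but the unnumbered (log2 fold change −0.41, SE 0.34, 95% interval −1.17 to 0.35, edgeR adjusted p = 0.815). Nr0b2 (SHP), an atypical receptor that represses LRH-1 and HNF4A, measured 15.3 ± 5.46 and 14.5 ± 3.82 CPM (−0.083, −0.68 to 0.52).

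The remaining orphan receptors were Nr2c1 and Nr2c2, the testicular receptors, and Nr2f2 and Nr2f6, of the COUP-TF family. Nr2f6 was the tested member with the smallest difference, at 57.9 ± 5.18 and 57.7 ± 3.58 CPM (log2 fold change −0.0042, 95% interval −0.19 to 0.18). Nr2c1 measured 18.9 ± 4.09 and 18.1 ± 1.22 CPM (−0.069), Nr2c2 23.9 ± 3.28 and 21.8 ± 3.63 CPM (−0.13) and Nr2f2, which stellate and endothelial cells also express, 2.26 ± 0.509 and 1.87 ± 0.446 CPM (−0.27).

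Of the 5 tested coactivators, 4 varied little between libraries. Ncoa1 (ENSMUSG00000020647; chromosome 12, 4247362 to 4477182, minus strand), the steroid receptor coactivator SRC-1, measured 19.0, 17.7, 20.4 and 21.0 CPM across GFP control replicates 1 to 4. The POLR2G values were 21.1, 19.1 and 21.6 CPM in replicates 1, 3 and 4 and 21.9 in the unnumbered library. The groups overlapped over a narrow range (log2 fold change 0.10, SE 0.088, 95% interval −0.098 to 0.30, edgeR adjusted p = 0.825). Ncoa3 (0.067, −0.15 to 0.28), Med1, the Mediator subunit that receptors contact (−0.068, −0.28 to 0.14), and the acetyltransferase gene Crebbp (−0.074, −0.29 to 0.14) had intervals inside 1.5-fold, given here as log2 fold changes.

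Ncoa6 was the exception, with 82 counts in the unnumbered POLR2G library and 0 to 7 in the other 3, against 3 to 47 in the controls. The log2 fold change was 0.12 (SE 1.26, edgeR adjusted p = 0.994), it was −2.85 without the unnumbered library (edgeR adjusted p = 0.579), and limma-voom gave −1.71. No direction can be given for Ncoa6.

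Of the corepressors and deacetylases, Ncor1 (ENSMUSG00000018501; chromosome 11, 62316426 to 62458541, minus strand), the corepressor that recruits HDAC3, had the smallest p of the 34 members. It measured 45.9, 61.6, 45.6 and 44.2 CPM across GFP control replicates 1 to 4. The POLR2G values were 37.0, 40.6 and 38.1 CPM in replicates 1, 3 and 4 and 43.3 in the unnumbered library. All 4 POLR2G libraries lay below all 4 controls, with a gap between 43.3 and 44.2 CPM. The means were 49.3 ± 8.22 and 39.8 ± 2.82 CPM, a log2 fold change of −0.31 (SE 0.11, 95% interval −0.57 to −0.054), or 1.24-fold lower. The unadjusted p was 0.0228 and the adjusted p over all genes 0.495 (edgeR), and the exact two-sided permutation p was 0.0286, the smallest that 4 against 4 libraries allow. Without GFP control replicate 2 the log2 fold change was −0.19 (edgeR adjusted p = 0.600). Without POLR2G replicate 1 (−0.28) or replicate 4 (−0.29) the unadjusted p was no longer under 0.05. With no composition scaling the log2 fold change was −0.39 and the groups overlapped. Ncor1 has 15 annotated coding transcripts, the most of any member.

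Nrip1 (ENSMUSG00000048490; chromosome 16, 76287400 to 76373827, minus strand), the corepressor RIP140, measured 13.4, 13.8, 14.5 and 13.0 CPM across GFP control replicates 1 to 4. The POLR2G values were 11.4, 11.7 and 10.3 CPM in replicates 1, 3 and 4 and 14.4 in the unnumbered library. The 3 numbered POLR2G libraries lay below all controls and the unnumbered one inside their range (log2 fold change −0.19, SE 0.12, 95% interval −0.47 to 0.081, edgeR adjusted p = 0.747). Without the unnumbered library the log2 fold change was −0.30 (edgeR adjusted p = 0.550).

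The other parts of the NCOR complex did not show the order seen for Ncor1. Hdac3, which has 1 coding transcript, measured 28.7 to 31.2 CPM with GFP and 29.2 to 33.5 CPM with POLR2G (log2 fold change 0.075, 95% interval −0.084 to 0.23, edgeR adjusted p = 0.843). Tbl1xr1, which exchanges corepressors for coactivators, measured 23.3 ± 3.66 and 21.8 ± 8.76 CPM (−0.093, −0.66 to 0.47), with the highest value, 34.1 CPM, in POLR2G replicate 1 and the lowest, 13.7, in the unnumbered library. Whether Ncor1 differs from these genes in its fold change was not tested.

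Sirt1 (ENSMUSG00000020063; chromosome 10, 63319005 to 63381704, minus strand), a deacetylase that acts on PGC-1 alpha and several receptors, had 46, 37, 15 and 173 counts across GFP control replicates 1 to 4. The POLR2G libraries had 189, 182 and 275 counts in replicates 1, 3 and 4 and 0 in the unnumbered library. The POLR2G group thus held a count of 0 beside 182 or more, and replicate 4 stood above the other controls. Its coefficient of variation among the controls, 101%, was the highest of the 34 tested members. The log2 fold change of 1.22 (SE 1.02, 95% interval −1.06 to 3.51, edgeR adjusted p = 0.818) was 0.0079 with limma-voom and 1.63 (edgeR adjusted p = 0.587) without the unnumbered library.

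The unnumbered POLR2G library was the lowest or the highest of the 8 for 19 of the 34 tested members, against 2 to 11 for each other library. Among the 19 were Ppara, Nr1i3, Nr3c2, Nr5a2, Nr0b2, Nr3c1, Rarb, Ncoa6, Tbl1xr1 and Sirt1. It also held the highest summed level of Kupffer cell and macrophage markers, 385 CPM, against 193 to 241 CPM in the other POLR2G and 178 to 279 CPM in the GFP control libraries. Its sum of lymphocyte and neutrophil markers was 17.1 CPM, against 8.84 to 10.9 and 6.95 to 12.8 CPM. The part of these markers in the members' values was not tested. Bulk libraries cannot tell fewer cells of a type from less RNA per cell.

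The members' median coefficient of variation was 16.8% in the GFP control and 17.3% in the POLR2G libraries, against 16.8% and 14.4% over all genes tested. Coregulators had medians of 9.03% and 10.5%, and receptors of 19.7% and 18.3%. The receptor and coregulator medians differ in the genes' counts as well, and no test was made.

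**Figure D3:**
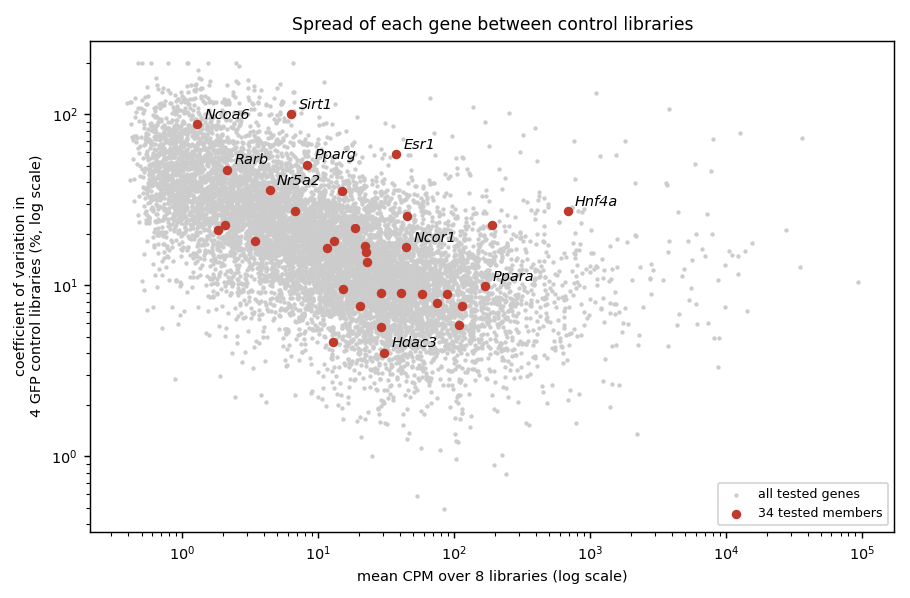
Coefficient of variation of CPM over the 4 GFP control libraries (y axis, log scale) against mean CPM over 8 libraries (x axis, log scale) for all tested genes (grey) and the 34 tested members (red). Sirt1 and Ncoa6 are the highest of the tested members, Esr1 is variable for its level at 58.4%, and Hdac3 is the steadiest tested member at 4.03%.

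Levels were also divided by the joined length of all annotated exons, which need not be the length of the transcripts counted. The order of genes on this scale is therefore approximate. Hnf4a was the highest of the 34 tested members at 142 CPM per kilobase over all 8 libraries. It was followed by Nr1i2 (45.0), Ppara (44.1), Nr1i3 (42.8), Nr1h3 (35.3) and Nr1h4 (32.7 CPM per kilobase). The order of Nr1i2, Ppara and Nr1i3 cannot be read, since their levels lie closer together than the spread between libraries. The place of Nr1i3 above Nr1h3 and Nr1h4 cannot be read either, since Nr1i3 ranged from 119 to 266 CPM between libraries. At the lower end were Nr2f2 (0.240), Rora (0.140) and Ncoa6 (0.132 CPM per kilobase). Rxra stood at 1.23 CPM per kilobase, below Rxrb (5.55), and of the genes named here Nr1i2 alone has 1 coding transcript.

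Other receptors and coregulators were read from lists of 20 and 27 genes. Of the 20 other nuclear receptors 8 were tested, 4 with a higher and 4 with a lower mean, and 0 passed (edgeR, adjusted p under 0.05).

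Of the 27 other coregulators 23 were tested, 12 with a higher and 11 with a lower mean, and 0 passed. Ppargc1a, which encodes PGC-1 alpha, the coactivator of PPARA and HNF4A in fasting, measured 19.1 ± 2.65 CPM with GFP and 13.7 ± 1.81 CPM with POLR2G, without overlap (log2 fold change −0.48, SE 0.13, edgeR adjusted p = 0.360, exact permutation p = 0.0286). Kat2a, an acetyltransferase that modifies PGC-1 alpha, had 0 to 43 counts in the controls and 58 to 139 with POLR2G (log2 fold change 1.70, SE 0.76, edgeR adjusted p = 0.601). Kat2a did not reach an unadjusted p under 0.05 in the main fit (edgeR). Its log2 fold change ran from 1.28 to 2.02 with a library left out, and its control counts reached down to 0. Whether the table covers all its transcripts was not tested. Both genes were named for the smallest p of their list. Any gene without overlap has that permutation p, so it adds nothing to the lack of overlap. Of the 23, 1 was lower and 1 higher without overlap, where 5.51% of all genes tested did not overlap.

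Genes known as targets of these receptors were set beside the receptor genes. Of 24 tested PPARA targets 22 had a lower mean, 13 were lower at an unadjusted p under 0.05 (edgeR; 4.1% of all genes), and the median log2 fold change was −0.74, while Ppara itself stood at −0.15. Among them the fatty acid transporter gene Cd36 passed over all genes (39.6 ± 3.57 and 22.7 ± 2.44 CPM, −0.80, edgeR adjusted p = 0.0481) and the hydroxylase gene Cyp4a14 did not (−4.38, SE 0.60, adjusted p = 0.0668). The fold of Cd36 varied little when a library was left out (−0.87 to −0.74), but it passed the threshold only without GFP control replicate 1 and in none of the other 7 such fits. It also missed the threshold with limma-voom (adjusted p = 0.0544), with no composition scaling (adjusted p = 0.0975) and with Polr2g left out of the library sizes (edgeR adjusted p = 0.0642), while DESeq2 called 10 of the 24. Between 12 and 14 targets were lower at an unadjusted p under 0.05 when a library was left out. The list was drawn up with earlier results of these libraries known, so its direction is no independent evidence.

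No gene of the other 7 target lists passed over all genes (edgeR). Some genes stand on more than 1 list, Cyp7a1 on those of LXR, FXR and HNF4A. The member Rarb (0.094) is also counted among the retinoic acid receptor targets, and the member Nr0b2 (−0.083) among the FXR targets. Those 2 medians are thus not separate from the members. The median log2 fold change was −0.079 over 7 LXR targets, −0.017 over 6 FXR targets, 0.064 over 7 CAR and PXR targets and −0.013 over 11 HNF4A targets. It was −0.28 over 10 glucocorticoid receptor targets, 0.076 over 4 thyroid hormone receptor targets and −0.012 over 4 retinoic acid receptor targets. The genes with the smallest p were Abcg5, a sterol transporter (0.35, SE 0.100), and Pltp, the phospholipid transfer protein (−1.07, SE 0.45), for LXR. For FXR they were the bile acid synthesis genes Cyp7a1 (−0.30, SE 0.28) and Cyp8b1 (0.14, SE 0.13), and for CAR and PXR Ugt1a1 (0.23, SE 0.10) and Cyp3a13 (0.23, SE 0.13). For HNF4A they were Otc, of the urea cycle (0.58, SE 0.11, edgeR adjusted p = 0.164), and Ttr, transthyretin (−0.19, SE 0.076). Dusp1, a phosphatase that glucocorticoids induce, had 1.44 (SE 0.21, edgeR adjusted p = 0.0826) and Pck1 −0.31 (SE 0.16). With DESeq2, Dusp1 (adjusted p = 3.68e-08) and Otc (adjusted p = 0.00216) passed. For the thyroid hormone receptor they were Hectd3 (0.18, SE 0.076) and Klf9 (0.10, SE 0.10), and for the retinoic acid receptors Cyp26a1 (−0.45, SE 0.36) and Dhrs3 (0.11, SE 0.12).

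**Figure D4:**
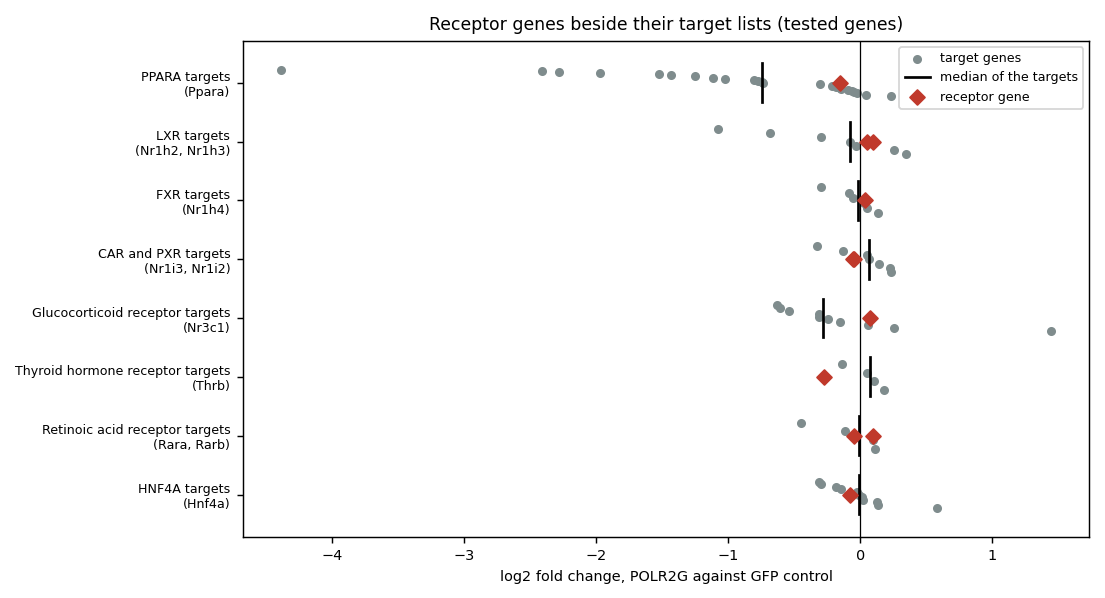
Log2 fold change, POLR2G against GFP control (x axis), of tested target genes (grey points), their median (black line) and the receptor genes (red diamonds), one row per target list. The PPARA targets reach from −4.38 to 0.23 with Ppara at −0.15, and the medians of the other 7 lists lie between −0.28 and 0.076. Rarb is drawn both as a target and as a receptor gene in its row.

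Markers of other liver cells were read because Rarb, Nr2f2 and Pparg are also expressed outside hepatocytes. The summed level of 10 stellate cell markers was 81.2 to 166 CPM with GFP and 90.3 to 139.7 CPM in the POLR2G libraries, with Pdgfrb at 0 in all 8. Endothelial markers, 8 of 9 in the table without Stab2, summed to 127 to 167 and 134 to 171 CPM, and cholangiocyte markers to 5.64 to 11.7 and 6.53 to 10.8 CPM. The summed ranges of the groups overlapped for these lists. By adjusted p (edgeR) 0 of their genes passed, where 4 of all 10390 did. At an unadjusted p under 0.05 (edgeR) 2 of 7 tested endothelial markers were lower and 0 higher, against 4.1% and 4.2% of all genes. Of the 7, 4 had a higher and 3 a lower mean, and 1 was lower without overlap. The stellate and cholangiocyte lists had 0 genes at that p. The part of all these markers in the values of Rarb, Nr2f2 and Pparg was not tested.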

How the data were processed

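Per the labels' protocols, poly-A RNA of frozen liver was sequenced from libraries that keep the strand. The deposited table holds estimated counts per Ensembl gene as whole numbers, not normalized, for 20894 genes in 8 libraries. The submitters' processing notes name Salmon 1.2.1 and 2 builds, mm10 and GRCm38. How transcript estimates became gene values, and with which annotation, is not given in the sources used here. Columns were matched to the labels' library names, and 1 POLR2G column with an unlisted number stayed unnumbered. Symbols came from a table of Ensembl gene names (20817 matched), and coordinates, counted from 1, from GENCODE M21 (GRCm38).

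The test was edgeR 4.0.16 in R 4.3.3 (quasi-likelihood, TMM, filterByExpr at its count minimum of 10 and total minimum of 15, no covariate, two-sided), with Benjamini-Hochberg adjustment over 10390 genes and a threshold of 0.05. The SE is the log2 fold change divided by the square root of F, and the 95% interval uses its t quantile. Exact permutation tests ran over 70 arrangements of log2 CPM (prior count 2). All 12 pairings of libraries of the same group exceeded sampling noise (chi-square of 12.9 to 127 for each degree of freedom). The labels name no batch.

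The members with a value in every library are, by rule, the 10 with the smallest p, Ppara, Rxra and Hnf4a; from each other list come genes past the threshold or the 2 with the smallest p. Some genes of the other lists are not reported here. Members and lists were chosen with earlier results of these data known. Alternatives were RLE or no scaling, DESeq2 1.42.0, limma-voom (limma 3.58.1), other filters, Polr2g left out, each library left out and the replicate number as a block. The fit was tested on simulated data.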

Additional observations from a re-analysis of the deposited data

Results flagged for a closer look

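In 4 of the 69 groups of 4 libraries examined, the highest library stood apart from the other 3 by Dixon's criterion, and chance gives about 1 in 20 groups. Ncor1 was at 61.6 CPM in GFP control replicate 2 and at 44.2 to 45.9 CPM in the other 3 controls. Rxrb was at 24.8 CPM in POLR2G replicate 4 and at 21.8 to 22.2 CPM in the other 3 POLR2G libraries. The unnumbered POLR2G library stood apart for Rarb, at 3.83 CPM against 1.59 to 1.82 CPM, and for Ncoa6, at 4.91 CPM against 0 to 0.399 CPM.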

How the results depend on the processing

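No member passed the adjusted threshold under any of the 17 alternatives (edgeR, DESeq2 or limma-voom). Over all genes, where 4 passed, the count was 1 with no composition scaling, 140 with DESeq2, 2 with Polr2g left out of the library sizes and 1 to 6 with a library left out. The count of members at an unadjusted p under 0.05 was 2 of 34 with no composition scaling, beside 941 of 10390 genes tested. It was 0 to 4 with a library left out. The 4 of 34 came without the unnumbered POLR2G library, beside 846 of 10631 genes tested. Members with groups apart numbered 0 with no composition scaling and 1 to 3 with a library left out. Groups apart over all genes were not counted under the alternatives. Of the PPARA targets, where 1 passed, the count was 0 with no composition scaling, limma-voom, Polr2g left out or the 6 libraries without a block, 2 with no low-count filter, 10 with DESeq2 and 0 to 2 with a library left out. Members' log2 fold changes that turned sign were Nr1h3 −0.022, Nr1h4 −0.038 and Ncoa3 −0.0042 with no composition scaling, and Ncoa6 −1.71 with limma-voom. The cause was not tested.

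Libraries that share a replicate number showed no visible pairing (correlations of deviations 0.064, −0.025 and 0.036 for replicates 1, 3 and 4). Whether the numbers mark pairs was not tested, and the labels do not say. A replicate block, on the 6 libraries whose number both groups share, gave 2 genes in all. It gave 3 of 33 members at an unadjusted p under 0.05, beside 728 of 10470 genes tested, and 3 with groups apart. It turned Rxrg to 0.13, Rara to 0.055, Rarb to −0.47, Nr1i3 to 0.072, Nr3c1 to −0.027, Nr0b2 to 0.14, Nr2f6 to 0.045 and Tbl1xr1 to 0.082. The same 6 libraries without the block, an alternative added after the data were seen, gave 1, 2 and 3. At an unadjusted p under 0.05 that fit had 778 of 10470 genes tested. There Rxrg was 0.14, Rara 0.087, Rarb −0.53, Nr1i3 0.071, Nr3c1 −0.027, Nr0b2 0.073, Nr2f6 0.045 and Tbl1xr1 0.12. Ncoa6 was not tested in the 6 libraries or with the stricter filter.

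With each library left out in turn, 18 members kept their sign and 16 did not. The median of the members ranged from −0.080 to 0.0058. The 16 ranged as follows: Esr1 from −0.52 to 0.16, Hnf4a from −0.22 to 0.098, Ncoa6 from −2.85 to 0.86, Nr0b2 from −0.23 to 0.17, Nr1h2 from −0.047 to 0.28, Nr1h3 from −0.012 to 0.081, Nr1h4 from −0.016 to 0.085, Nr1i2 from −0.14 to 0.016, Nr1i3 from −0.28 to 0.11, Nr2c1 from −0.20 to 0.036, Nr2f6 from −0.049 to 0.050, Nr3c2 from −0.020 to 0.55, Rara from −0.26 to 0.075, Rarb from −0.31 to 0.42, Rxrg from −0.19 to 0.054 and Tbl1xr1 from −0.40 to 0.074. Low counts limit Rora, Nr2f2, Rarb, Ncoa6 and the 6 members not tested.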
